A study of Mus musculus with 8 samples.

Results

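Insulin signalling and FoxO target genes were followed through the hormone response of 3134 cells, a mammary cell line of the mouse that descends from C127 cells. The set held 10 genes: the insulin receptor Insr, its substrates Irs1 and Irs2, the PI3-kinase inhibitor Pik3ip1, the transcription factors Foxo1 and Foxo3, and Klhl24, Ccng2, Sesn1 and Bcl6, which FoxO factors are known to regulate. Members were taken by name, as probe sets annotated with exactly 1 of these symbols, and of several probe sets for a gene the brightest on average was used. All 10 were found among the 19938 genes measured. The 10 genes and the gene lists used below were chosen with earlier results of these data known. The share of all genes called is thus given beside their counts as a description, not as a test.

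Expression was measured as log2 values on 8 oligonucleotide arrays that form 4 groups of 2. The cells of every group carried A-fos, which blocks DNA binding by AP-1 as a dominant negative, under a Tet-Off switch driven by the tetracycline-controlled transactivator tTA, and were kept in serum stripped with charcoal and dextran for 48 h before hormone. The groups crossed 0 h and 4 h of dexamethasone (100 nM), a synthetic ligand of the glucocorticoid receptor, with the tetracycline state (1 ug per ml where it was used), and the study asked how AP-1 bears on the glucocorticoid response. No group was kept for 4 h without dexamethasone. A hormone or dexamethasone response here thus means 4 h against 0 h, and the hormone and the time that passed cannot be told apart. For every array the sample title and the treatment protocol disagree on whether tetracycline was present, so the arms carry the names no-titled and plus-titled here, and which arm expressed A-fos is not settled. Nothing says that the 2 arrays of a group came from separate cultures; the p-values thus reflect the spread between these arrays alone, which may be technical.

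Insulin binds its receptor, a tyrosine kinase, which phosphorylates the substrate proteins IRS1 and IRS2. These recruit PI3-kinase, which leads to activation of the kinase AKT. Active AKT phosphorylates FoxO transcription factors and keeps them out of the nucleus, so FoxO target genes are known to be expressed when insulin and growth factor signals are low, and several of them, with Irs2 and Insr themselves, feed back on the pathway.

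Promoter sequences were read from RefSeq (GRCm38.p6) for windows from 250 bases before to 50 bases after each annotated start, and 8 of the 10 genes matched, with 10 windows among them. The search covered the FoxO site GTAAACA, the insulin response sequence CAAAACA, to which FoxO factors are also known to bind, the AP-1 site TGANTCA and the glucocorticoid receptor half-site AGAACA, each on both strands. Letters of the insulin response sequence stood in the windows of 3 genes, Irs1, Irs2 and Ccng2, and in 6.28% of 32841 mouse promoter windows of the same length. Those of the FoxO site stood in 1, Sesn1 (3.65% of all windows), those of the half-site in 1, Bcl6 (19%), and those of the AP-1 site in 0 of the 8 (7.81%). The 4 windows with a FoxO site or an insulin response sequence are shown because the courses of these genes differ below; capitals mark the matched letters, and a match is a description of the letters only. Irs1 (chr1:82291390-82291689, minus strand) has the insulin response sequence 111 and 32 bases before its start, Irs2 (chr8:11008880-11009179, minus strand) 37 bases before, and Ccng2 (chr5:93267323-93267622, plus strand) 16 bases before. In Sesn1 (chr10:41810324-41810623, plus strand, the upstream of 2 annotated starts) the FoxO site begins 22 bases after the start.
Irs1: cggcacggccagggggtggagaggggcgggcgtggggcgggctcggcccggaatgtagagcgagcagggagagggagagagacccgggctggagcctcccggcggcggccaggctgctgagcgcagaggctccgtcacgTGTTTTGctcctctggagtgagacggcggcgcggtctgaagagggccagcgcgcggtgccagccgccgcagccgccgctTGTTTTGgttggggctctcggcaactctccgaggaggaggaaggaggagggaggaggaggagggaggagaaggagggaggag
Irs2: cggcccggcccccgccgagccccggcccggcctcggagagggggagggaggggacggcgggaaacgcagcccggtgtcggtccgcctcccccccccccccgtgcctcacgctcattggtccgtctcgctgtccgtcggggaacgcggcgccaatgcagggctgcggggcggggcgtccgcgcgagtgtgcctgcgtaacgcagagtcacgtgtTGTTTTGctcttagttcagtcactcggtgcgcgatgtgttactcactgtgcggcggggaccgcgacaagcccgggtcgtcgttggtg
Ccng2: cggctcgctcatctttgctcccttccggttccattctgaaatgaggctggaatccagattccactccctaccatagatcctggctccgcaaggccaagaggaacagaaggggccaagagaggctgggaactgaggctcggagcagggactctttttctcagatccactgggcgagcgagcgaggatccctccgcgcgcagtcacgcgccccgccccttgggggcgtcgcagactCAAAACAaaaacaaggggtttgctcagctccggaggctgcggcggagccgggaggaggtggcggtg
Sesn1: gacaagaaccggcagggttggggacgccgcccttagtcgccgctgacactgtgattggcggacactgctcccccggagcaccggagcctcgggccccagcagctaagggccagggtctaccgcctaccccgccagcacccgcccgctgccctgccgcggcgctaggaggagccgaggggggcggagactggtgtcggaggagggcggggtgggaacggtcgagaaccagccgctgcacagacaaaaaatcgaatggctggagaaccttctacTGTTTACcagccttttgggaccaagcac

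Array medians lay between 5.59 and 5.69, and replicates correlated at 0.993 to 0.996 across genes. The number of genes with replicates over 2-fold apart was 4 to 24 per group and highest for the untreated plus-titled arrays, which a principal component with 9.73% of the variance placed at 17.6 and -15.3. For the 10 genes the mean difference between replicates was 0.158 to 0.178 on the log2 scale in every group. As a rough check of the mammary label, since levels of different probe sets are not strictly comparable, 10 of 10 mesenchymal markers lay above the median of all genes (from Thy1 at 5.82 to Vim at 12.82) and 4 of 10 luminal epithelial markers did (the highest being Gata3 at 7.90, with Epcam at 4.39 and Cdh1 at 4.95). Of 47 markers of 6 cell types, 1 rose and 0 fell with dexamethasone in no-titled cells and 0 rose and 1 fell in the plus-titled arm (limma; 5 and 4 at an unadjusted p under 0.05, 2 and 1 with a trended and robust variance). Of all genes, 1.43% and 1.1% were called with dexamethasone in these arms, in the same order. Between the arms, 5 of the 47 markers were higher and 3 lower at 0 h and 4 higher and 4 lower at 4 h. At these times 9.38% and 9.61% of all genes were called. The macrophage lysozyme gene Lyz2 was 2.44 and 2.75 higher (log2) in the plus-titled arm, but the other 6 of the 7 leukocyte markers measured were called at neither time. Among markers of other cell types, Acta2, Krt7 and Pdgfra were called higher in the plus-titled arm at both times. Krt14, Col1a2 and S100a4 were called lower there at both times. Whether these marker differences bear on the values below was not tested. In RNA from whole cultures, fewer cells expressing a gene and less of its RNA per cell cannot be told apart.

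After 4 h of dexamethasone, both FoxO factors and the targets Klhl24 and Sesn1 were higher in each arm, by 1.70-fold to 3.19-fold, while Irs1 was lower in no-titled cells and Ccng2 higher in the plus-titled arm. In the no-titled arm 4 of the 10 genes rose and 1 fell at an adjusted p under 0.05 (limma, Benjamini-Hochberg over all genes), where 1.43% of all genes were called, 1.03% higher and 0.401% lower. Without single arrays this count of 5 ranged from 4 to 5. In the plus-titled arm 5 rose and 0 fell, where 1.1% of all genes were called, 0.823% higher and 0.281% lower (6 members had an unadjusted p under 0.05, and a trended and robust variance also called 5), and the count was 3 without replicate 1 of the untreated or replicate 2 of the treated plus-titled group and 4 or 5 without any other array. Foxo1, Foxo3, Klhl24 and Sesn1 rose in both arms, as did 0.527% of all genes. Medians of the 10 log2 responses were 0.35 and 0.52 in no-titled and plus-titled cells, beside 0.01 and -0.01 over all genes.

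Between the arms, Klhl24, Sesn1, Ccng2 and Insr were higher and Bcl6 lower in the plus-titled arm at both times. At 0 h 5 genes were higher (Insr, Foxo1, Klhl24, Ccng2 and Sesn1) and 1 lower, where 9.38% of all genes were called, 6.2% higher and 3.18% lower. At 4 h 5 were higher (Irs1 in place of Foxo1) and 1 lower, where 9.61% were called, 5.29% higher and 4.32% lower. The 0 h count of 6 became 1 and 3 without replicates 1 and 2 of the untreated no-titled group, 4 and 2 without those of the untreated plus-titled group, and 5 without any treated array. The 4 h count of 6 became 3 without replicate 1 of the treated no-titled group and lay between 4 and 6 without any other array. Called in the same direction at both times were 5 of the 10 genes and 5.81% of all genes. Medians of the 10 differences were 0.36 and 0.48, beside -0.02 and -0.01 over all genes. The hormone response of an arm and the difference between the arms at 0 h or at 4 h share arrays, so these comparisons are not independent of each other.

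**Figure D1:**
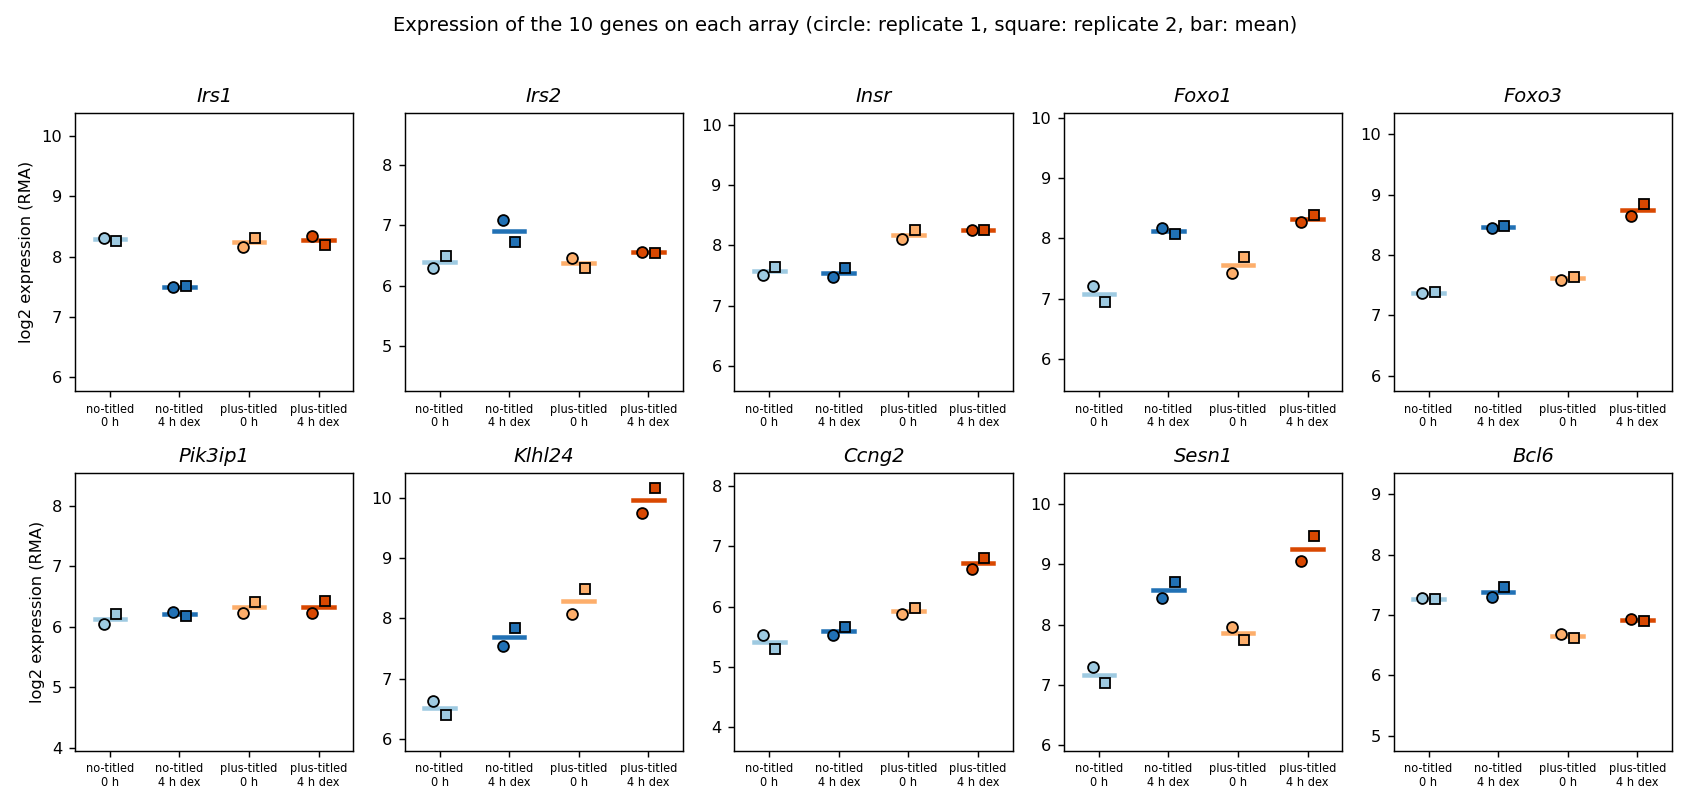
Log2 expression of each of the 10 genes on each of the 8 arrays, with 2 arrays per group and a bar at their mean; every panel spans the same number of log2 units around its own gene. Klhl24 climbs from 6.39 and 6.64 in the untreated no-titled group to 9.75 and 10.16 in the treated plus-titled group, Irs1 is low only in the treated no-titled group, and Insr and Bcl6 separate by arm at both times.

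Insr, the receptor itself, read 7.51 and 7.65 on the untreated no-titled arrays and 7.47 and 7.63 on the treated ones. It read 8.11 and 8.25 on the untreated plus-titled arrays and 8.25 and 8.25 on the treated ones. Every plus-titled array lay above every no-titled array, and within an arm the no-titled times overlapped. Insr was 1.51-fold higher in the plus-titled arm at 0 h (log2 0.60 ± 0.11 SE, adjusted p = 0.00944) and 1.62-fold higher at 4 h (0.70 ± 0.11, adjusted p = 0.00427). Another Insr probe set, with a mean of 7.51, gave 0.56 at 0 h and 0.69 at 4 h (adjusted p = 0.00883 and 0.00305). Without replicate 1 of the untreated no-titled group or replicate 2 of the untreated plus-titled group the 0 h call was lost (adjusted p up to 0.0937), and without replicate 1 of the treated no-titled group the 4 h adjusted p was 0.05. Its dexamethasone responses were -0.03 and 0.07, and neither passed the test (adjusted p = 0.99 and 0.898).

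Irs1, the adaptor that couples the receptor to PI3-kinase, read 8.32 and 8.26 on the untreated no-titled arrays and 7.50 and 7.52 after dexamethasone in that arm. The plus-titled arrays read 8.15 and 8.32 before and 8.35 and 8.19 after dexamethasone. The treated no-titled arrays thus lay below the other 6, which overlapped between groups. Irs1 fell 1.72-fold in the no-titled arm (log2 -0.78 ± 0.11 SE, adjusted p = 0.00466), and its response in the plus-titled arm was 0.04 ± 0.11 (adjusted p = 0.955). The no-titled call was lost without replicate 1 of either no-titled group (adjusted p up to 0.0635, with log2 values from -0.81 to -0.75 over the 8 arrays left out in turn). At 4 h Irs1 was 1.70-fold higher in the plus-titled arm (0.77 ± 0.11, adjusted p = 0.0024), a call made with each array left out, while the 0 h difference was -0.05 (adjusted p = 0.835). A dimmer Irs1 probe set, with a mean of 4.21, gave a no-titled response of -0.32 (adjusted p = 0.522) and a 4 h arm difference of 0.44 (adjusted p = 0.0746).

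Irs2, the other main substrate, read 6.29 and 6.49 on the untreated and 7.08 and 6.73 on the treated no-titled arrays, and 6.46, 6.29, 6.56 and 6.55 on the plus-titled arrays in the same order. Both treated no-titled arrays were the highest of the 8, and the untreated groups overlapped. The response of 0.51 ± 0.14 in the no-titled arm did not pass the test (adjusted p = 0.149), nor did 0.18 in the plus-titled arm (adjusted p = 0.749) or -0.35 between the arms at 4 h (adjusted p = 0.162). Irs2 and Irs1, whose promoter windows both hold the insulin response sequence printed above, thus had no-titled responses of opposite sign, of which that of Irs1 was called. Pik3ip1, a membrane protein that binds and restrains PI3-kinase, stayed between 6.05 and 6.43 on all arrays. Its lowest and highest group means were 1.15-fold apart, and groups next to each other in order of mean overlapped. The untreated no-titled arrays, however, lay below every plus-titled array. Pik3ip1 passed in none of the 7 contrasts, and its smallest adjusted p (limma) was 0.274, for the mean arm difference.

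Foxo1, a transcription factor that AKT holds out of the nucleus, read 7.21 and 6.95 untreated and 8.17 and 8.08 treated in the no-titled arm, and 7.42 and 7.69 untreated and 8.26 and 8.38 treated in the plus-titled arm. No group overlapped another. Foxo1 rose 2.06-fold in the no-titled arm (log2 1.04 ± 0.13 SE, adjusted p = 0.00201) and 1.70-fold in the plus-titled arm (0.77 ± 0.13, adjusted p = 0.0191). The plus-titled call was lost without replicate 1 of the untreated or either replicate of the treated plus-titled group (largest adjusted p 0.191). At 0 h Foxo1 was 0.47 ± 0.13 higher in the plus-titled arm at an adjusted p of 0.0496, which was lost when any of 7 arrays was left out (0.34 to 0.61, with a largest adjusted p of 0.31) and under 4 further settings. At 4 h the difference was 0.20 (adjusted p = 0.444).

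Foxo3, a close relative of Foxo1 under the same control by AKT, read 7.37 and 7.38 untreated and 8.44 and 8.48 treated in that arm, and 7.59 and 7.64 untreated and 8.64 and 8.84 treated in the plus-titled arm. Treated arrays lay above untreated ones in both arms, with no overlap between any groups. The rise was 2.12-fold in the no-titled arm (log2 1.09 ± 0.11 SE, adjusted p = 0.000354) and 2.18-fold in the plus-titled arm (1.13 ± 0.11, adjusted p = 0.000413), and both calls held with each array left out. Differences between the arms were 0.24 at 0 h and 0.28 at 4 h (adjusted p = 0.23 and 0.16). Their mean of 0.26 passed (adjusted p = 0.0409) but was lost when any of 7 arrays was left out (0.21 to 0.31 over the 8 fits). It was also lost after cyclic loess between the arrays (limma, adjusted p = 0.0955).

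Klhl24, a Kelch-like adaptor of a cullin-based ubiquitin ligase, differed most among the 10 genes. The no-titled arrays read 6.64 and 6.39 untreated and 7.54 and 7.84 treated. The plus-titled arrays read 8.07 and 8.49 untreated and 9.75 and 10.16 treated. All 4 groups were separate, the untreated plus-titled arrays lay above the treated no-titled ones, and the extreme group means were 10.8-fold apart. After dexamethasone Klhl24 was 2.26-fold higher in the no-titled arm (log2 1.17 ± 0.18 SE, adjusted p = 0.00776) and 3.19-fold higher in the plus-titled arm (1.67 ± 0.18, adjusted p = 0.000927). The no-titled call was lost without replicate 2 of either no-titled group (adjusted p up to 0.0895). Between the arms Klhl24 was 3.40-fold higher at 0 h (1.77 ± 0.18, adjusted p = 0.000466) and 4.81-fold higher at 4 h (2.27 ± 0.18, adjusted p = 9.61e-05) in the plus-titled arm, and both calls held with each array left out.

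Sesn1, a sestrin that restrains the mTOR complex when amino acids or growth signals are low, read 7.30 and 7.02 untreated and 8.44 and 8.70 treated in the no-titled arm. It read 7.96 and 7.75 untreated and 9.05 and 9.46 treated in the plus-titled arm. Groups lay in the order untreated no-titled, untreated plus-titled, treated no-titled and treated plus-titled, without overlap, and the extremes were 4.27-fold apart. The responses were nearly equal in size, 2.65-fold in the no-titled arm (log2 1.41 ± 0.16 SE, adjusted p = 0.00112) and 2.64-fold in the plus-titled arm (1.40 ± 0.16, adjusted p = 0.0016), and both calls held with each array left out. In the plus-titled arm Sesn1 was 0.69 ± 0.16 higher at 0 h and 0.69 ± 0.16 higher at 4 h (adjusted p = 0.0265 and 0.0249). The 0 h call was lost without any of the 4 untreated arrays (adjusted p up to 0.183). The 4 h call was lost without replicate 1 of the treated no-titled or replicate 2 of the treated plus-titled group (largest adjusted p 0.195). Sesn1 was the only 1 of the 8 genes with a promoter window to hold the FoxO site printed above.

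Ccng2, a cyclin linked to exit from the cell cycle, read 5.53 and 5.30 untreated and 5.53 and 5.66 treated in the no-titled arm, where the times overlapped. In the plus-titled arm it read 5.88 and 5.98 untreated and 6.63 and 6.81 treated, all above the no-titled arrays. Ccng2 rose 1.72-fold in the plus-titled arm (log2 0.79 ± 0.12 SE, adjusted p = 0.0119), and its no-titled response was 0.18 ± 0.12 (adjusted p = 0.799). The plus-titled call was lost without either untreated replicate or replicate 2 of the treated group (adjusted p up to 0.139). Ccng2 was 0.52 ± 0.12 higher in the plus-titled arm at 0 h (adjusted p = 0.028, lost without any of the 4 untreated arrays, up to 0.21). At 4 h it was 2.17-fold higher (1.12 ± 0.12, adjusted p = 0.000538), a call made with each array left out.

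Bcl6, a zinc finger repressor, was the only member called lower in the plus-titled arm. It read 7.28 and 7.27 untreated and 7.30 and 7.46 treated in the no-titled arm, and 6.68 and 6.61 untreated and 6.93 and 6.90 treated in the plus-titled arm. Every plus-titled array lay below every no-titled array. The difference was -0.62 ± 0.11 (log2 ± SE) at 0 h, 1.54-fold lower (adjusted p = 0.00551), and -0.47 ± 0.11 at 4 h (adjusted p = 0.02). Without replicate 1 of the untreated no-titled group the 0 h adjusted p was 0.0512, and without any of the 4 treated arrays the 4 h call was lost (adjusted p up to 0.149). Responses to dexamethasone were 0.11 and 0.26 and did not pass the test (adjusted p = 0.9 and 0.42).

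**Figure D2:**
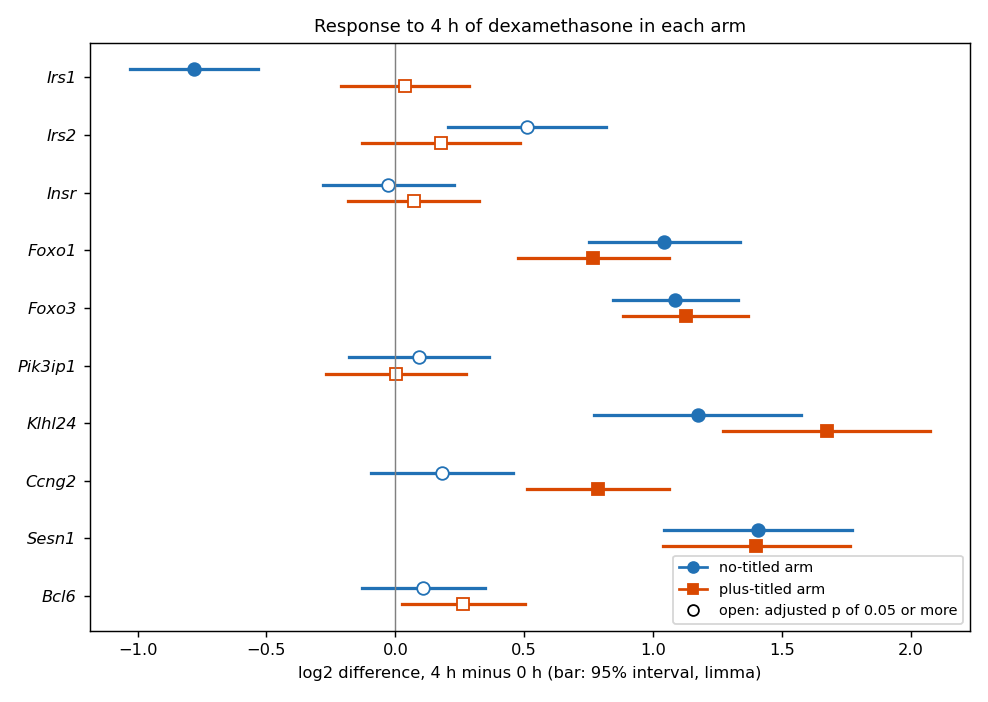
Dexamethasone response (log2, 4 h minus 0 h) of each gene in the no-titled arm (circles) and the plus-titled arm (squares), with 95% intervals from limma; filled symbols passed the test. Foxo1, Foxo3, Klhl24 and Sesn1 are filled in both arms, Irs1 lies at -0.78 only in the no-titled arm, and Ccng2 is filled only in the plus-titled arm; the difference between the arms' responses passed for none of them.

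**Figure D3:**
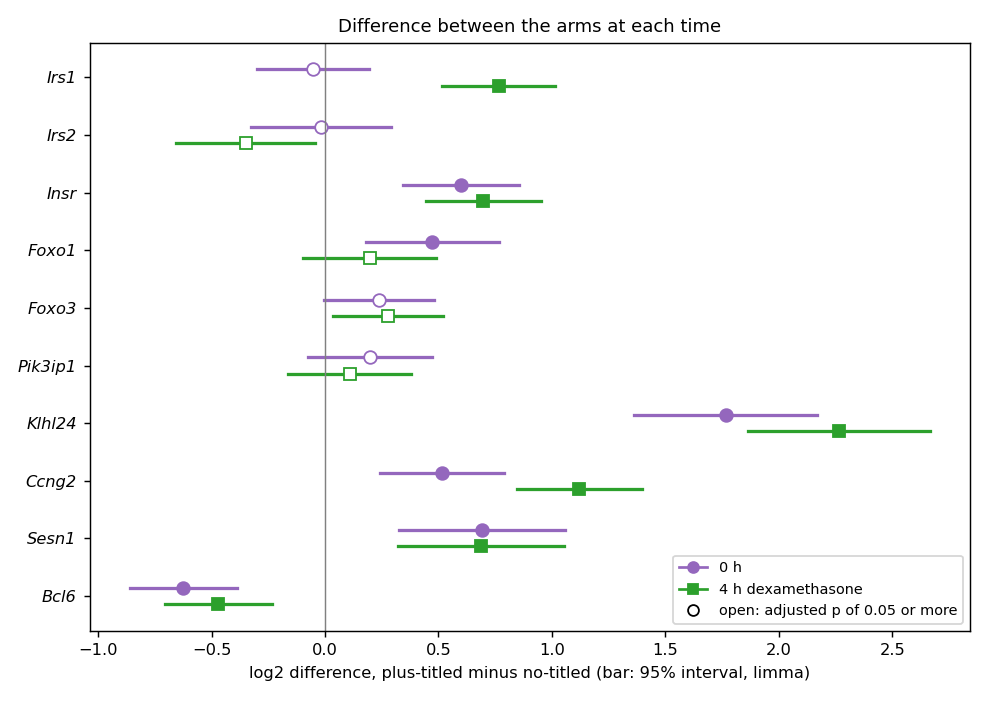
Difference between the arms (log2, plus-titled minus no-titled) of each gene at 0 h (circles) and after 4 h of dexamethasone (squares), with 95% intervals from limma; filled symbols passed the test. Klhl24 stands at 1.77 and 2.27, Insr at 0.60 and 0.70, Bcl6 at -0.62 and -0.47, and Irs1 moves from -0.05 at 0 h to 0.77 at 4 h.

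Averaged over both arms, 5 of the 10 genes rose with dexamethasone and 1 fell, where 2.96% of all genes were called, 1.73% higher and 1.23% lower. Foxo3 (1.11, adjusted p = 1.43e-05), Sesn1 (1.40, adjusted p = 5.32e-05), Klhl24 (1.42, adjusted p = 9.93e-05) and Foxo1 (0.91, adjusted p = 0.000259) passed with each array left out. Ccng2 (0.48, adjusted p = 0.0124) was lost in 4 of those 8 fits (0.43 to 0.54 over the 8), and Irs1 (-0.37, adjusted p = 0.0296) in 6 (-0.41 to -0.33 over the 8). The Irs1 call was also lost with the mean of its probe sets (limma, adjusted p = 0.136). Averaged over both times, 7 genes were higher and 1 lower in the plus-titled arm, where 18.8% of all genes were called, 11% higher and 7.74% lower. Foxo1 was among the 7 at 0.34 (adjusted p = 0.0293) and was lost in 5 of the 8 fits (0.27 to 0.40 over the 8). Cyclic loess between the arrays also lost it (limma, adjusted p = 0.071). Irs1 (0.36, adjusted p = 0.00957), Insr (0.65), Klhl24 (2.02), Ccng2 (0.82), Sesn1 (0.69) and Bcl6 (-0.55) passed with each array left out.

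Whether the hormone response differed between the arms was tested directly as the plus-titled minus the no-titled response. In this contrast 0 of the 10 genes passed (limma; 2 at an unadjusted p under 0.05, 0 with a trended and robust variance), where 0.00502% of all genes, a single gene, were called. The largest difference was that of Irs1, 0.82 ± 0.16 SE on the log2 scale with a 95% interval of 0.47 to 1.17, which ranked 20 by p among all genes and had an adjusted p of 0.353. Its sign was the same without each single array (0.74 to 0.90, adjusted p 0.331 to 0.947). Ccng2 came next at 0.60 (0.22 to 0.99, adjusted p = 0.754). The interval for Klhl24 ran from -0.07 to 1.07, for Foxo1 from -0.69 to 0.14, for Sesn1 from -0.52 to 0.51 and for Foxo3 from -0.30 to 0.38. A fall of Irs1 or a rise of Ccng2 called in 1 arm is therefore not shown to be particular to that arm.

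Other genes of the pathway were read from 7 lists, which together held 136 measured genes besides the 10 and share some genes. With dexamethasone 8 rose and 1 fell in no-titled cells (1.43% of all genes were called) and 8 rose and 2 fell in the plus-titled arm (1.1% of all genes), with medians of 0.03 and -0.02. A trended and robust variance called 11 and 19 of the 136. Between the arms 26 were higher and 9 lower in the plus-titled arm at 0 h, where 6.2% and 3.18% of all genes were, and 26 higher and 6 lower at 4 h, where 5.29% and 4.32% were. The medians were 0.10 and 0.07. In the difference of the responses 0 of the 136 passed (limma; 11 at an unadjusted p under 0.05, 1 with a trended and robust variance).

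Receptors, substrates and adaptors other than Insr, Irs1 and Irs2 numbered 19, of which 2 rose in no-titled cells and 3 in the plus-titled arm and 0 fell in either (limma; 4 and 5 at an unadjusted p under 0.05, and 2 and 3 called with a trended and robust variance). Their medians were 0.06 and -0.07. Dok1, a docking protein that damps tyrosine kinase signals, rose by 1.19 in no-titled cells and 0.88 in the plus-titled arm (log2, adjusted p = 0.000105 and 0.00145), in both with each array left out. Sh2b2, an adaptor that binds the active insulin receptor, rose by 0.84 (adjusted p = 0.00517; lost without replicate 2 of the untreated or replicate 1 of the treated no-titled group, up to 0.0749) and 1.28 (adjusted p = 0.00038). Gab2, a docking protein related to Gab1, rose by 0.52 in the plus-titled arm at an adjusted p of 0.0498, which no fit without 1 array kept (up to 0.356). In the plus-titled arm 6 of the 19 were higher and 0 lower at 0 h, and 4 higher and 1 lower at 4 h, with medians of 0.24 and 0.17; without single arrays 2 to 5 were called at 0 h and 3 to 5 at 4 h. Igf2r, the receptor that clears the growth factor IGF2, was higher by 0.87 and 0.73 (adjusted p = 0.00109 and 0.0024), and Gab1 by 0.69 and 0.81 (adjusted p = 0.00354 and 0.00135), beside the 0.60 and 0.70 of Insr.

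Among 23 PI3-kinase, AKT and mTOR genes, 0 passed with dexamethasone in the no-titled arm (limma; 5 at an unadjusted p under 0.05, 1 with a trended and robust variance), and 1 rose and 1 fell in the plus-titled arm (5 called with a trended and robust variance), with medians of -0.05 and -0.04. Deptor, an inhibitor within the mTOR complexes, rose by 0.70 there (adjusted p = 0.0206), and Pik3r3, a regulatory subunit of PI3-kinase, fell by 0.74 (adjusted p = 0.0448). The Deptor call was lost without replicate 1 of the untreated or either replicate of the treated plus-titled group (up to 0.181). That of Pik3r3 was lost without any plus-titled array or either untreated no-titled array (up to 0.331). Between the arms 5 were higher and 2 lower at 0 h and 5 higher and 1 lower at 4 h, with medians of 0.16 and 0.23, and without single arrays 4 to 6 and 2 to 7 were called. Rptor, the scaffold of an mTOR complex, was higher by 1.11 and 1.40 (adjusted p = 0.0011 and 0.00034) and Eif4ebp1, a repressor of translation that mTOR inactivates, lower by 1.09 and 0.78 (log2 -1.09 and -0.78, adjusted p = 0.000861 and 0.00411). Pik3r3, which fell with dexamethasone in the plus-titled arm, was higher there by 1.48 at 0 h (limma, adjusted p = 0.000425) and was also called higher at 4 h. Deptor, which rose in that arm, was called lower there at 0 h.

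Of 20 other inhibitors of the pathway, 1 rose and 0 fell in no-titled cells and 1 rose and 1 fell in the plus-titled arm, with medians of 0.07 and -0.03; a trended and robust variance called 2 and 5. Ddit4, which restrains mTOR through the TSC complex as the sestrins do by another route, rose by 1.74 ± 0.21 SE and 2.28 ± 0.21 (log2, adjusted p = 0.00146 and 0.000285), in both arms with each array left out, beside 1.41 and 1.40 for Sesn1. Trib3, a pseudokinase that binds AKT, fell by 0.65 in the plus-titled arm (adjusted p = 0.0443), a call lost without any plus-titled array or either untreated no-titled array (up to 0.352). Between the arms 4 were higher and 2 lower at 0 h and 3 higher and 1 lower at 4 h, with medians of 0.07 and 0.05, and without single arrays 2 to 5 and 1 to 4 were called. Trib3 was lower by 1.18 and 1.38 in the plus-titled arm (log2 -1.18 and -1.38, adjusted p = 0.000689 and 0.000273) and the lipid phosphatase gene Inpp4a higher by 0.70 and 0.55 (adjusted p = 0.00374 and 0.0113; the 4 h call was lost without either treated no-titled array or replicate 1 of the treated plus-titled group, up to 0.0847).

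Insulin, IGF and IGF-binding protein genes numbered 11, and 0 passed with dexamethasone in either arm (limma; 1 and 0 at an unadjusted p under 0.05, 0 and 0 with a trended and robust variance). Their medians were 0.02 and -0.02. Between the arms 1 was higher and 1 lower at each time, with medians of -0.07 and -0.18. Igfbp6, a binding protein with a preference for IGF2, was lower in the plus-titled arm (log2 -1.08 and -0.81, adjusted p = 0.000407 and 0.0013). Igf1, a ligand of the closely related IGF receptor, was higher by 0.42 and 0.60 (adjusted p = 0.0488 and 0.0105). The 0 h call of Igf1 was kept in 1 of the 8 fits without 1 array (up to 0.21), and that at 4 h was lost without replicate 2 of either treated group (up to 0.0796).

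Among 22 FoxO relatives, kinases, binding partners and modifiers, Sgk1 alone rose with dexamethasone, by 2.27 and 3.38 (log2, adjusted p = 4.05e-06 and 2.02e-07), and the medians were 0.00 and -0.06. Sgk1 encodes a kinase that, like AKT, phosphorylates FoxO3, and it is a known glucocorticoid-induced gene. It was lower in the plus-titled arm at 0 h (-1.02, adjusted p = 0.000884) and differed by 0.09 at 4 h (adjusted p = 0.752). Between the arms 0 of the 22 were higher and 1 lower at 0 h, and 2 higher and 1 lower at 4 h (1 to 3 called without single arrays), with medians of 0.07 and 0.04. At 4 h Foxo4, another FoxO factor, was higher by 0.56 (adjusted p = 0.00827; lost without replicate 1 of the treated no-titled or replicate 2 of the treated plus-titled group, up to 0.0707) and Sgk3, a relative of Sgk1, by 0.76 (adjusted p = 0.0029). Xpo1, the exportin that carries FoxO proteins out of the nucleus, was lower at 4 h (-0.49, adjusted p = 0.0293; lost without either treated no-titled array or replicate 2 of the treated plus-titled group, up to 0.21). Foxo4 did not pass with dexamethasone (-0.14 and 0.05, adjusted p = 0.827 and 0.927), whereas Foxo1 and Foxo3 did. As a check of the hormone, 6 of 8 known glucocorticoid-induced genes rose in each arm, with medians of 2.23 and 2.33; Fkbp5, a chaperone gene of the receptor complex, rose by 3.05 and 3.32 (adjusted p = 6.16e-07 and 2.02e-07).

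Known FoxO target genes other than the 10 numbered 43, and with dexamethasone 3 rose and 1 fell in no-titled cells and 1 rose and 0 fell in the plus-titled arm. Counts without single arrays were 1 to 4 and 1 to 2, and a trended and robust variance called 4 and 4. Medians were 0.01 in both arms, beside 0.01 and -0.01 over all genes. Pdk4, a kinase that shuts pyruvate out of mitochondrial oxidation, read 4.91 ± 0.03 (SD, n = 2) untreated and 7.24 ± 0.06 treated in no-titled cells and 5.51 ± 0.18 and 7.74 ± 0.04 in the plus-titled arm. It rose by 2.33 and 2.23 (log2, adjusted p = 3.22e-06 and 4.95e-06), in both arms with each array left out. Gadd45b, a stress response gene, rose by 0.67 (adjusted p = 0.00867) and its relative Gadd45a fell by 0.83 (adjusted p = 0.0159) in the no-titled arm, and both calls were lost without any of the 4 no-titled arrays (up to 0.0927 and 0.164). Txnip, an inhibitor of thioredoxin and of glucose uptake, rose by 0.78 in that arm (adjusted p = 0.0297), lost without replicate 1 of the untreated or replicate 2 of the treated no-titled group or either untreated plus-titled array (up to 0.295).

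Between the arms 11 of these 43 targets were higher and 3 lower at 0 h and 12 higher and 1 lower at 4 h, with medians of 0.07 and 0.12, beside 9.38% and 9.61% of all genes called. Without single arrays the totals of 14 and 13 called ran from 5 to 14 at 0 h and from 4 to 12 at 4 h. Txnip was higher by 2.00 and 1.77 in the plus-titled arm (log2, adjusted p = 8.51e-05 and 0.000134), beside 1.77 and 2.27 for Klhl24. The autophagy genes Map1lc3b (0.80 and 0.79, adjusted p = 0.00145 and 0.0014) and Atg14 (0.65 and 0.78, adjusted p = 0.00382 and 0.00137) were higher at both times, with each array left out. Gadd45a was lower, by 1.23 and 0.66 (log2 -1.23 and -0.66, adjusted p = 0.000861 and 0.0165; the 4 h call was lost without either treated no-titled array or replicate 1 of the treated plus-titled group, up to 0.117). These targets were called in both directions, as were the 4 members introduced above as regulated by FoxO factors, Klhl24, Sesn1 and Ccng2 being higher and Bcl6 lower. Of Irs2 and Insr, which feed back on the pathway, Insr was called at both times and Irs2 at neither.

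**Figure D4:**
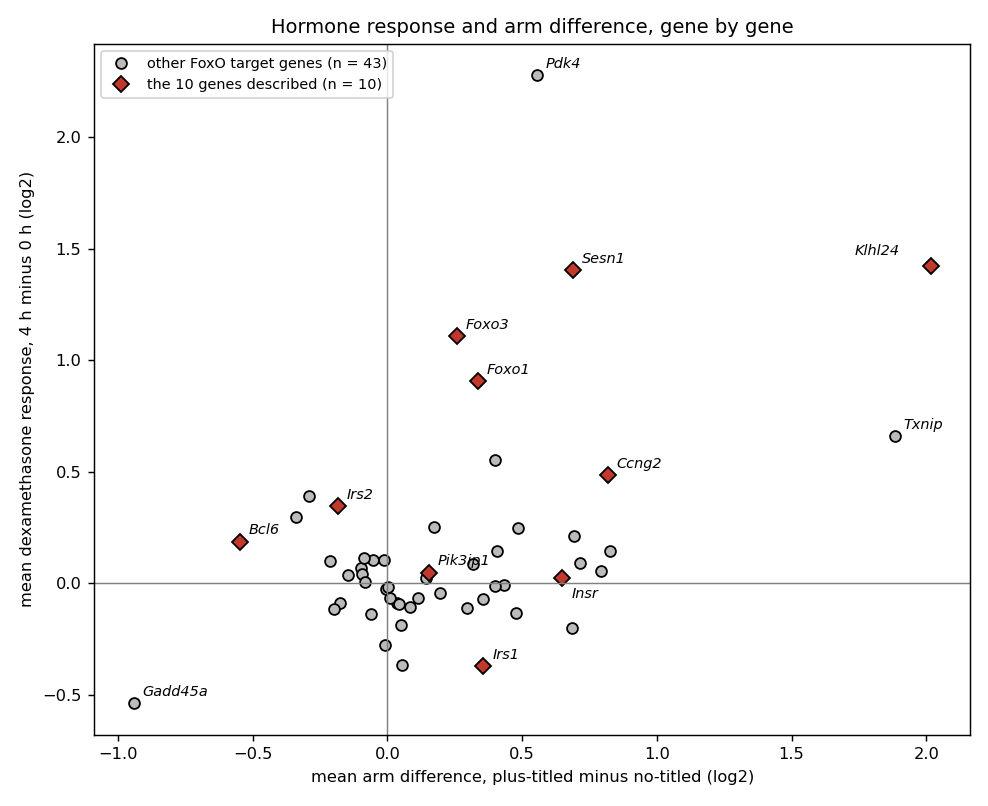
Mean dexamethasone response (vertical, log2, 4 h minus 0 h, averaged over both arms) against mean arm difference (horizontal, log2, plus-titled minus no-titled, averaged over both times) for the 10 genes described (diamonds) and 43 other known FoxO target genes (grey circles). Klhl24 lies at 2.02 and 1.42 and Sesn1 at 0.69 and 1.40; most grey circles lie near 0 on the vertical axis, with Pdk4 at 0.55 and 2.28 farthest above it.

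Closest relatives of the 10 genes numbered 11, of which 1 rose with dexamethasone in each arm (medians 0.06 and -0.02), and 2 were higher at 0 h and 3 at 4 h in the plus-titled arm (medians 0.24 and 0.11). Klhl6, a Kelch-like relative of Klhl24 and its neighbour in RefSeq gene order, read 4.59 ± 0.16 (SD, n = 2) untreated and 5.55 ± 0.18 treated in the no-titled arm, and 5.81 ± 0.30 and 7.53 ± 0.24 in the plus-titled arm. It rose by 0.96 in the no-titled arm (log2, adjusted p = 0.0188; lost without any of the 4 no-titled arrays, up to 0.194) and by 1.71 in the plus-titled arm (adjusted p = 0.000502). Its arm differences were 1.22 and 1.97 (adjusted p = 0.00208 and 0.000154), beside 1.77 and 2.27 for Klhl24. Sesn3, a sestrin like Sesn1, was higher by 0.71 and 0.66 in the plus-titled arm (adjusted p = 0.0101 and 0.0133; lost in 3 and 2 of the 8 fits without 1 array, up to 0.068 and 0.122). Unlike Sesn1 it was not called with dexamethasone, at -0.18 and -0.23 (adjusted p = 0.842 and 0.654).

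For Klhl24, Sesn1 and Foxo3, whose group means varied most, the genes with the most similar course were found by Pearson's r over the 8 arrays. The candidates were genes whose SD over the arrays was at least 0.5 times that of the gene in question, with no upper limit, and r is a description, since the 8 points share the 4 groups. Klhl24 was followed most closely by Stard5 (r = 0.994), which encodes a sterol carrier, Fam214a (0.979) and Aldh1a7 (0.976), an aldehyde dehydrogenase gene, among 128 candidates. Stard5 rose by 0.56 and 0.87 with dexamethasone (log2, adjusted p = 0.0395 and 0.00351) and was higher by 0.91 and 1.22 in the plus-titled arm, and Aldh1a7 by 2.17 and 1.76. Sesn1 was followed by Rapgef2 (0.977), Peak1 (0.976) and Hacd2 (0.970) among 606. Peak1, which encodes a pseudokinase of the cytoskeleton, rose by 1.68 and 1.57 (adjusted p = 1.65e-05 and 4.7e-05). Foxo3 was followed by Tcim (0.998), the FoxO target Pdk4 (0.996) and Arrdc2 (0.993) among 1824. Tcim rose by 2.09 and 2.35 (adjusted p = 6.02e-06 and 4.59e-06), beside 1.09 and 1.13 for Foxo3.

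**Figure D5:**
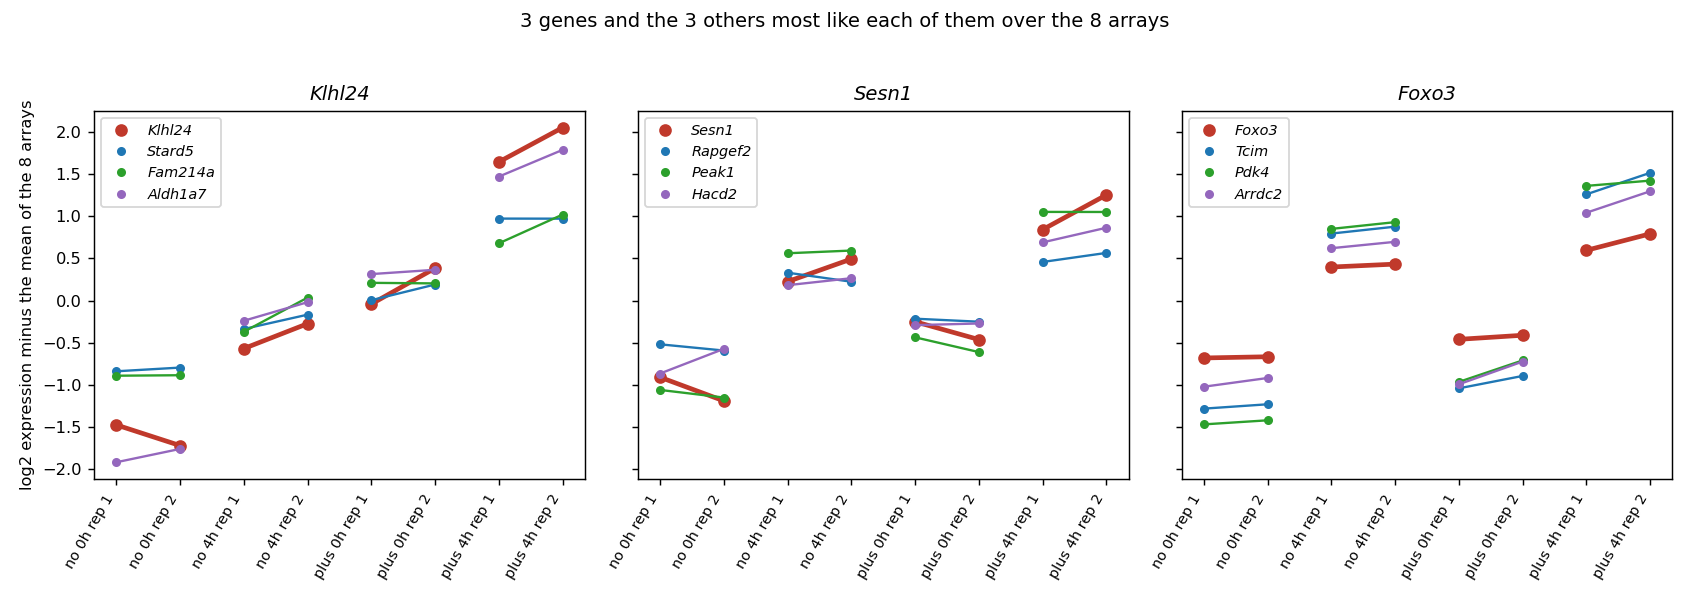
Log2 expression on each of the 8 arrays, less the gene's own mean over the 8, for Klhl24, Sesn1 and Foxo3 (thick red) and the 3 genes with the highest Pearson's r to each; lines join the 2 replicates of a group. Klhl24 and its 3 followers step up from group to group, with r from 0.976 to 0.994, and Foxo3 with Tcim, Pdk4 and Arrdc2 separates mainly 0 h from 4 h.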

How the data were processed

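RNA of 3134 cells was hybridised to 8 arrays, 2 per group. The deposited table holds the authors' log2 expression values for 28888 probe sets; per the submitters' processing notes, RMA as run by Affymetrix Expression Console made them, which corrects background, equalises array distributions and summarises probes. Their versions were not given in the sources used here. This hides a change shared by most genes, and compresses folds of dim genes. No detection call was used, and apart from a rough check of cell type markers, levels of different probe sets were not compared.

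The annotation table gives 21789 probe sets a single symbol, 1621 more than 1, and 5478 no symbol; 21698 symbols were found by gene number in RefSeq (GRCm38.p6). The probe set with the highest mean stood for each of 19938 genes, of which 999 had several. The number of arrays limits the precision.

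limma 3.58.1 in R 4.3.3 (lmFit, eBayes) fitted 1 mean per group over all 8 arrays, with 4 residual degrees of freedom, a prior of 6.64 and a prior SD of 0.127. Tests were 2-sided, adjusted by Benjamini-Hochberg over all genes within each of 7 contrasts, and called at an adjusted p under 0.05. Adjusted p-values are from this model unless a fit without 1 array or another alternative is named. Those of the other Insr and Irs1 probe sets came from the same model fitted to all 21789 probe sets with a single symbol. They were adjusted over those probe sets. Replicate numbers (1 and 2) were not taken to pair the arrays.

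The members and the gene lists were chosen with earlier results of these data known. Named genes are the 10 members, up to 3 called genes of smallest adjusted p per list and contrast, and, for the 3 members with the most variable group means, the 3 genes of highest Pearson's r among those with an SD at least 0.5 times the member's. Cell type markers were named for their level or their difference between the arms, after these were seen. Some genes of the lists are not reported here. The alternatives tried were a trended and robust variance, a fit of the compared groups alone, a replicate block, removal of dim genes (under the 25th percentile), cyclic loess, median centring, the mean of a gene's probe sets or each probe set singly, and leaving out each array, where the lone array left in a group is assumed to vary like those of the other groups.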

Additional observations from a re-analysis of the deposited data

How the results depend on the processing

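In all 7 contrasts the count of members called stayed within 1.5 times its value under every alternative other than leaving out arrays. Without 1 array the counts ran from 4 to 5 (dexamethasone, no-titled), 3 to 5 (plus-titled), 4 to 6 (mean response), 1 to 5 (arms at 0 h), 3 to 6 (arms at 4 h), 6 to 8 (mean arm difference) and 0 to 0 (difference of responses). Of 560 single values without 1 array, 483 kept direction and call, 57 lost the call and 20 changed sign; of 530 under other alternatives these were 519, 7 and 4. The values that changed sign were all near 0 and not called: under other settings, Pik3ip1's plus-titled response (-0.0219 after median centring), Irs1's 0 h arm difference (0.0069 with the mean of its probe sets), Irs2's (0.0117 after median centring) and Sesn1's difference of responses (0.0463 after cyclic loess). Without 1 array, they were the responses of Insr (-0.109 to 0.0548, no-titled; -0.0189 to 0.0631, mean), Irs1 (-0.0458 to 0.117, plus-titled) and Pik3ip1 (-0.102 to 0.106, plus-titled; -0.00478 to 0.0993, mean), the 0 h arm differences of Irs1 (-0.134 to 0.0286) and Irs2 (-0.118 to 0.0841), and the differences of responses of Foxo3 (-0.0571 to 0.138), Pik3ip1 (-0.194 to 0.014) and Sesn1 (-0.21 to 0.201). Over all genes a trended and robust variance called 461 in place of 285 (no-titled response), 370 in place of 220 (plus-titled response) and 11 in place of 1 (difference of responses). Deviations of same-numbered arrays correlated at -0.02 to 0.13, and the replicate block called 5, 5, 6, 5, 6, 8 and 0 members in the 7 contrasts in the order above. Over all genes the block called 276 in place of 285 (no-titled response), 2028 in place of 1870 (arms at 0 h) and 2108 in place of 1916 (arms at 4 h). These values do not exclude a weak component shared by same-numbered arrays. Signal over background was not assessed, so no member's fold was corrected for compression at low signal.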
